A study of Mus musculus with 8 samples.

Results

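The loss of H3.3B was measured at 2 stages of mouse spermatogenesis, and the comparison described here asks whether the knockout effect itself differed between them. For each gene, piRNA cluster and repeat family the log2 ratio of KO over WT was taken in post-meiotic cells and in meiotic cells, and the second value was subtracted from the first. This quantity is called the stage difference, and a value above 0 means that the KO stood higher against its WT after meiosis than during it. All 8 RNA-seq libraries of the series entered 1 model with 4 groups of 2 libraries. The stage difference could be tested for 20412 of 29880 genes, 402 of 876 piRNA clusters and 973 of 1208 repeat families.

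The KO mice carried the genotype H3.3BKO/KO :Actin Cre WT and the WT mice H3.3BWT/WT :Actin Cre WT, all of the strain C57BL/6 and aged between 3 and 6 months. The 4 groups were KO post-meiotic, WT post-meiotic, KO meiotic and WT meiotic cells, obtained by letting dissociated tubule cells, kept in medium with sodium butyrate, settle through an albumin gradient. Per the labels the post-meiotic fraction was mainly round spermatids with few elongated ones, and RNA came from the tubules of a single mouse. Whether both fractions of a replicate number came from 1 mouse is not given in the sources used here, so each p-value rests on the spread between these libraries. Other cells of the testis are present in such fractions.

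H3f3b is 1 of the 2 genes for H3.3, the histone variant that is laid into chromatin outside of DNA replication. In spermatocytes the X and Y chromosomes are silenced and stay largely silent in round spermatids. Pachytene spermatocytes transcribe long loci, the piRNA clusters, into precursors of the small RNAs that guide PIWI proteins, and the same cells hold many retroelements in check.

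Sequencing was deep at both stages, with 57853283 to 92836630 gene reads and 8995050 to 18865521 repeat reads per library. Replicates of a group differed by more than sampling noise, so none was counted as a duplicate. Stage markers followed the labels. Protamine Prm1 stood at 5062 and 4899 CPM (reads scaled to the TMM effective library size, as in edgeR) in KO post-meiotic and at 5730 and 5851 CPM in WT post-meiotic libraries, against 1636 and 1330 CPM in KO meiotic and 1735 and 2035 CPM in WT meiotic libraries. Each fraction also held the other stage. Hist1h1t, the linker histone of spermatocytes, gave 58.7 and 53.5 CPM in KO post-meiotic, 30.0 and 31.4 CPM in WT post-meiotic, 948 and 1016 CPM in KO meiotic and 784 and 856 CPM in WT meiotic libraries, and its own stage difference was 0.61 ± 0.081 (± is the standard error throughout, edgeR adjusted p = 0.000351, lost without post-meiotic KO replicate 1). The synaptonemal complex gene Sycp3 was higher in KO at both stages, by 0.55 after meiosis and 0.43 in meiosis on the log2 scale. The part that a different mixture of cells has in the results was not tested, and in such bulk fractions fewer cells of a type and less RNA per cell cannot be told apart.

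The targeted gene, H3f3b (ENSMUSG00000016559, mm9 chr11:115883226-115889276), was at 6.43 and 7.70 CPM in KO post-meiotic and 237 and 217 CPM in WT post-meiotic libraries. In meiotic cells the KO libraries held 9.84 and 11.2 CPM and the WT libraries 568 and 554 CPM. All KO libraries therefore lay far below all WT libraries. The log2 ratio was −5.01 ± 0.082 after meiosis and −5.73 ± 0.080 in meiosis, and the stage difference of 0.72 ± 0.109 passed the adjusted p limit (edgeR adjusted p = 0.00152, lost without post-meiotic KO replicate 2). H3f3a, the second gene for the same protein, had a stage difference of −0.24 ± 0.069, and its edgeR adjusted p of 0.0308 missed that limit.

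Genes whose KO effect differed between stages moved almost wholly in 1 direction. At an adjusted p under 0.01 and a log2 limit of 1, 102 genes had a stage difference above 0, which is 0.500% of those tested, and 1 gene (0.00490%) had one below 0. Without the log2 limit the counts were 343 above 0 (1.68%) and 188 below 0 (0.921%). The median over all genes was 0.0034, a value that the TMM scaling holds near 0, and it was −0.021 with RLE size factors and 0.043 with library totals. Across the 20412 genes the KO effects of the 2 stages, which share no library, correlated at a Pearson r of 0.563, a description over genes that are not independent of each other. The count of 103 depended on single libraries: it was 14 without post-meiotic KO replicate 1, 32 without post-meiotic WT replicate 2, 34 without meiotic WT replicate 1 and 57 without meiotic KO replicate 2.

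The stage in which the KO effect lay was read from the 2 single-stage comparisons of the same fit, at an adjusted p under 0.01 with no fold minimum. Background rates at this rule were 12.4% of genes higher and 11.6% lower in KO post-meiotic cells, and 8.98% higher and 8.55% lower in KO meiotic cells. Of the 102 genes, 61 were higher in post-meiotic KO cells and not past the limit in meiotic ones, 25 were lower in meiotic KO cells only, 12 were both, and 4 were past the limit in neither. In level terms, both post-meiotic KO libraries lay above both WT libraries for 94 of the 102 (38.7% of all genes tested), and both meiotic KO libraries lay below both WT libraries for 77 (30.3% of all genes tested). The stage difference is built from these same values, so the shares describe the genes and are no added test.

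**Figure D1:**
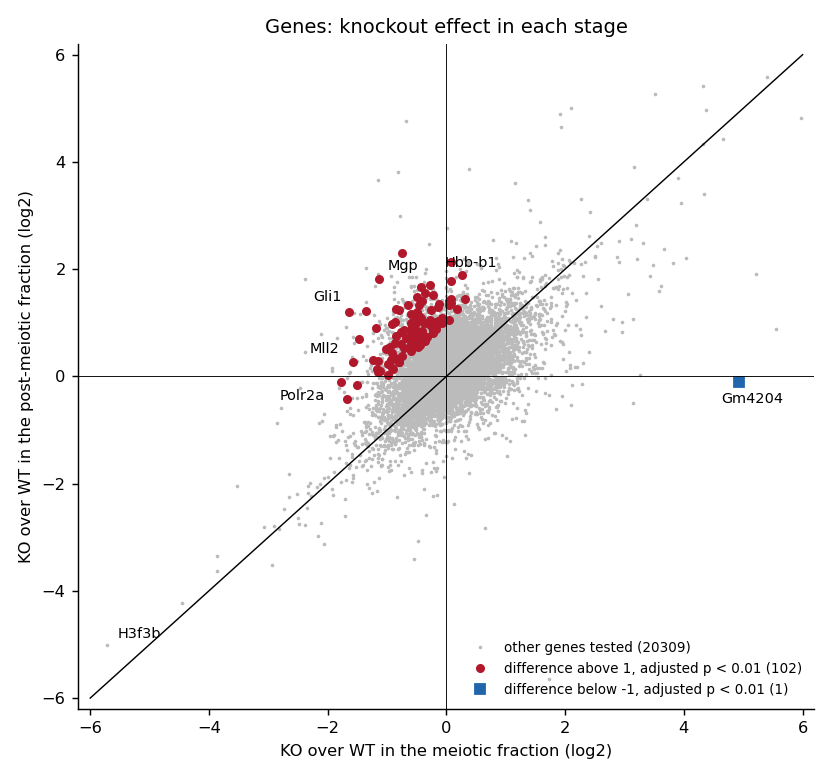
Log2 KO over WT in the meiotic fraction (x axis) against the post-meiotic fraction (y axis) for the 20412 genes tested, with 1 point per gene and a diagonal where both stages show the same effect. The 102 genes with a stage difference above 1 at an adjusted p under 0.01 (red) lie left of and above the diagonal, and the 1 gene below −1 (blue square, Gm4204) lies at the right, below the diagonal.

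Genes of connective tissue and of the tubule wall were among those that were higher after meiosis. Mgp (ENSMUSG00000030218, mm9 chr6:136820957-136824326), which encodes matrix Gla protein, an inhibitor of calcification, had 7.14 and 5.58 CPM in KO post-meiotic and 1.75 and 1.86 CPM in WT post-meiotic libraries. In meiotic cells it had 0.285 and 0.193 CPM in KO and 0.462 and 0.560 CPM in WT libraries. The KO libraries were thus above WT at one stage and below it at the other without overlap. Mgp rose by 1.82 ± 0.159 on the log2 scale after meiosis and had a log2 ratio of −1.14 ± 0.313 in meiosis, a stage difference of 2.96 ± 0.352 (edgeR adjusted p = 0.000118, kept in all 8 fits that left out 1 library, each of which assumes that the lone library varies like the others).

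Lama2, a laminin chain of the basement membrane, gave 69.2 and 60.9 CPM in KO post-meiotic and 36.0 and 32.3 CPM in WT post-meiotic libraries. Its meiotic levels were 24.0 and 25.1 CPM in KO and 30.5 and 27.8 CPM in WT libraries. Here the change sat after meiosis, at 0.93 ± 0.072, while the meiotic value of −0.25 ± 0.074 missed the limit (edgeR adjusted p = 0.0168). The stage difference of 1.18 ± 0.104 was kept in all 8 fits that left out 1 library (edgeR adjusted p = 8.93e-06). Ogn, which encodes the small matrix proteoglycan osteoglycin, had 12.7 and 9.20 CPM in KO post-meiotic, 5.25 and 4.16 CPM in WT post-meiotic, 2.30 and 1.35 CPM in KO meiotic and 4.33 and 4.65 CPM in WT meiotic libraries. Its KO libraries lay above WT after meiosis and below WT in meiosis, with a stage difference of 2.56 ± 0.358 (edgeR adjusted p = 0.00713). That call was lost without post-meiotic KO replicate 1, either post-meiotic WT replicate or either meiotic WT replicate.

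Itih5, an inter-alpha-trypsin inhibitor chain that binds hyaluronan, and Des, the intermediate filament of muscle cells, showed the same pair of opposite changes. Itih5 had 8.78 and 7.18 CPM in KO post-meiotic, 4.22 and 3.73 CPM in WT post-meiotic, 1.82 and 1.25 CPM in KO meiotic and 2.65 and 2.78 CPM in WT meiotic libraries, a stage difference of 1.86 ± 0.225 (edgeR adjusted p = 0.000165, kept in all 8 fits). Des had 4.44 and 3.83 CPM in KO post-meiotic, 2.83 and 2.81 CPM in WT post-meiotic, 0.761 and 0.700 CPM in KO meiotic and 1.48 and 1.34 CPM in WT meiotic libraries. Its rise of 0.55 after meiosis was smaller than its fall by 0.96 in meiosis, and the stage difference was 1.51 ± 0.231 (edgeR adjusted p = 0.000835, lost without post-meiotic KO replicate 1). Pdgfra, the PDGF receptor of mesenchymal cells, moved after meiosis, with 35.8 and 27.7 CPM in KO and 14.5 and 12.1 CPM in WT post-meiotic libraries, and hardly in meiosis, with 4.80 and 4.65 CPM in KO and 4.02 and 4.34 CPM in WT libraries (stage difference 1.08 ± 0.183, edgeR adjusted p = 0.00400, lost without each library but post-meiotic KO replicate 2 and post-meiotic WT replicate 1).

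**Figure D2:**
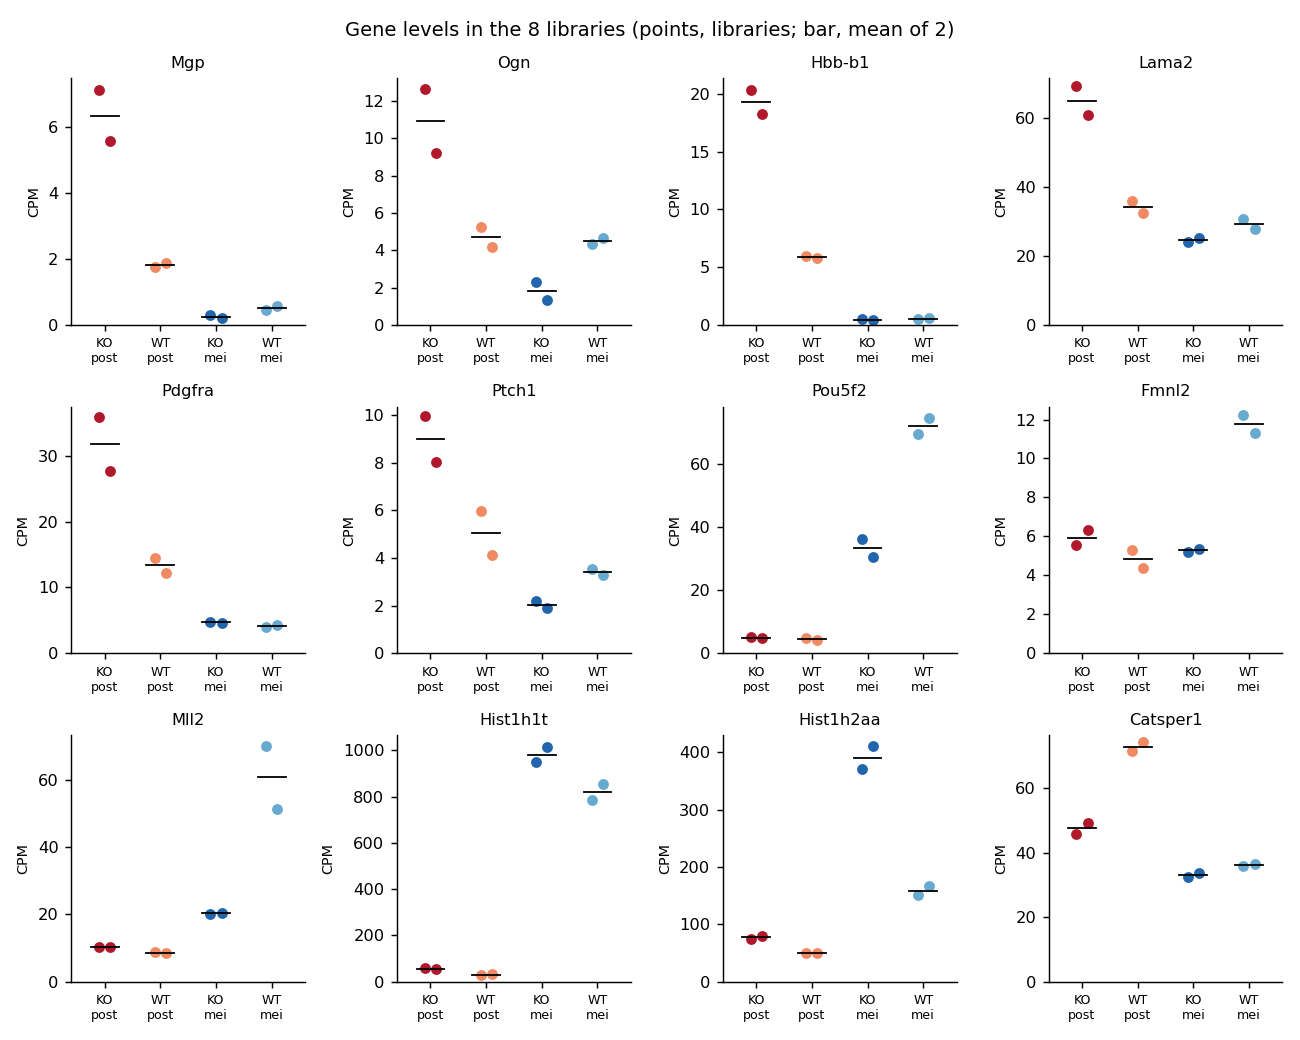
Level in CPM of 12 genes in each library (points) with the mean of 2 (bar), for KO and WT post-meiotic and KO and WT meiotic cells from left to right. Mgp and Ogn are above WT in post-meiotic KO and below WT in meiotic KO libraries, Hbb-b1, Lama2 and Pdgfra differ mainly after meiosis, Pou5f2, Fmnl2 and Mll2 differ in meiosis, and Hist1h2aa is higher in KO at both stages but more so in meiosis (411 CPM at most).

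Whole lists of cell type markers and matrix genes were counted in the same way. Of 41 peritubular and fibroblast genes, 8 had a stage difference above 0 at an adjusted p under 0.01 and none below, with a list median of 0.76 against 0.0034 over all genes. Summed over the list, levels were 1250 and 1080 CPM in KO post-meiotic, 834 and 761 CPM in WT post-meiotic, 406 and 376 CPM in KO meiotic and 369 and 361 CPM in WT meiotic libraries. The sum was therefore higher in KO at both stages while the typical member was not, since the median member was at 0.55 after meiosis and −0.23 in meiosis. The defining genes of these cells, Acta2 and Myh11, had stage differences of 1.27 ± 0.354 and 1.18 ± 0.253 that missed the limit (edgeR adjusted p = 0.106 and 0.0406). Of 41 collagen genes 24 had a value above 0 and 17 below, with a median of 0.20. At an adjusted p under 0.01, 2 collagen genes were above 0 and 0 below. Of 68 other matrix genes 56 had a value above 0 and 12 below, with a median of 0.48. At that limit 9 of the 68 were above 0 and 0 below.

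Leydig cells, the steroid-making cells between the tubules, gave the largest list median, 1.02. At an adjusted p under 0.01, 5 of 28 genes had a stage difference above 0 and 0 below. The members past the limit were Klk1b24 and Klk1b21, tissue kallikreins whose near-identical copies can share reads, the nuclear receptors Nr2f2 and Nr5a1, and Hsd17b3, which makes testosterone. Nr5a1, which drives steroid synthesis genes and also belongs to Sertoli cells, had 5.80 and 5.92 CPM in KO post-meiotic, 3.78 and 3.17 CPM in WT post-meiotic, 8.90 and 6.69 CPM in KO meiotic and 8.94 and 8.20 CPM in WT meiotic libraries. Hsd17b3 had 1.12 and 0.993 CPM in KO and 0.692 and 0.699 CPM in WT post-meiotic libraries. In meiosis it had 5.39 and 4.49 CPM in KO and 7.51 and 7.25 CPM in WT libraries. Its log2 ratios were similar in size and opposite, 0.61 after meiosis and −0.59 in meiosis, without overlap at either stage. Only the meiotic value passed the limit, and the post-meiotic value had an edgeR adjusted p of 0.0270. The calls of Nr5a1, Hsd17b3 and Klk1b24 were lost without any 1 library other than meiotic KO replicate 1 or meiotic WT replicate 2. The defining markers Star and Insl3 had stage differences of 0.85 ± 0.423 and 1.44 ± 0.553 that missed the limit (edgeR adjusted p = 0.320 and 0.128). Summed levels ran from 242.2 to 258.5 CPM in KO post-meiotic, 209.0 to 222.3 CPM in WT post-meiotic, 415.3 to 580.4 CPM in KO meiotic and 634.6 to 671.2 CPM in WT meiotic libraries.

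Genes of blood and of Sertoli cells, the nurse cells of the tubule, had fewer members past the limit. The globin gene Hbb-b1, whose neighbor Hbb-b2 is a near copy, had 20.4 and 18.2 CPM in KO post-meiotic and 6.00 and 5.82 CPM in WT post-meiotic libraries, but 0.507 and 0.386 CPM in KO meiotic and 0.493 and 0.560 CPM in WT meiotic libraries, and its call (stage difference 1.98 ± 0.264, edgeR adjusted p = 0.000350) was kept in all 8 fits that left out 1 library. It was the 1 of 8 red cell genes past the limit. Of 31 Sertoli genes 2 passed the limit above 0, Wnt6 and Nr5a1. A value above 0 was found for 28 of the 31, with a median of 0.40, while the defining genes Sox9 and Amh were under 1 CPM in every library. Leukocyte genes behaved otherwise: 20 of 37 were higher in post-meiotic KO and 9 in meiotic KO cells, with medians of 0.73 and 0.63, and Cd52 alone had a stage difference past the limit, which 5 of the 8 fits that left out 1 library lost. Endothelial genes had none of 22 past it and a median of −0.15. Together 20 of the 102 genes (19.6%) belonged to somatic, blood or matrix lists, against 268 of the 20412 tested (1.31%). The lists were chosen with earlier results of these data known, so this share is a description and no added test. The part of cell mixture in this was not tested.

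**Figure D3:**
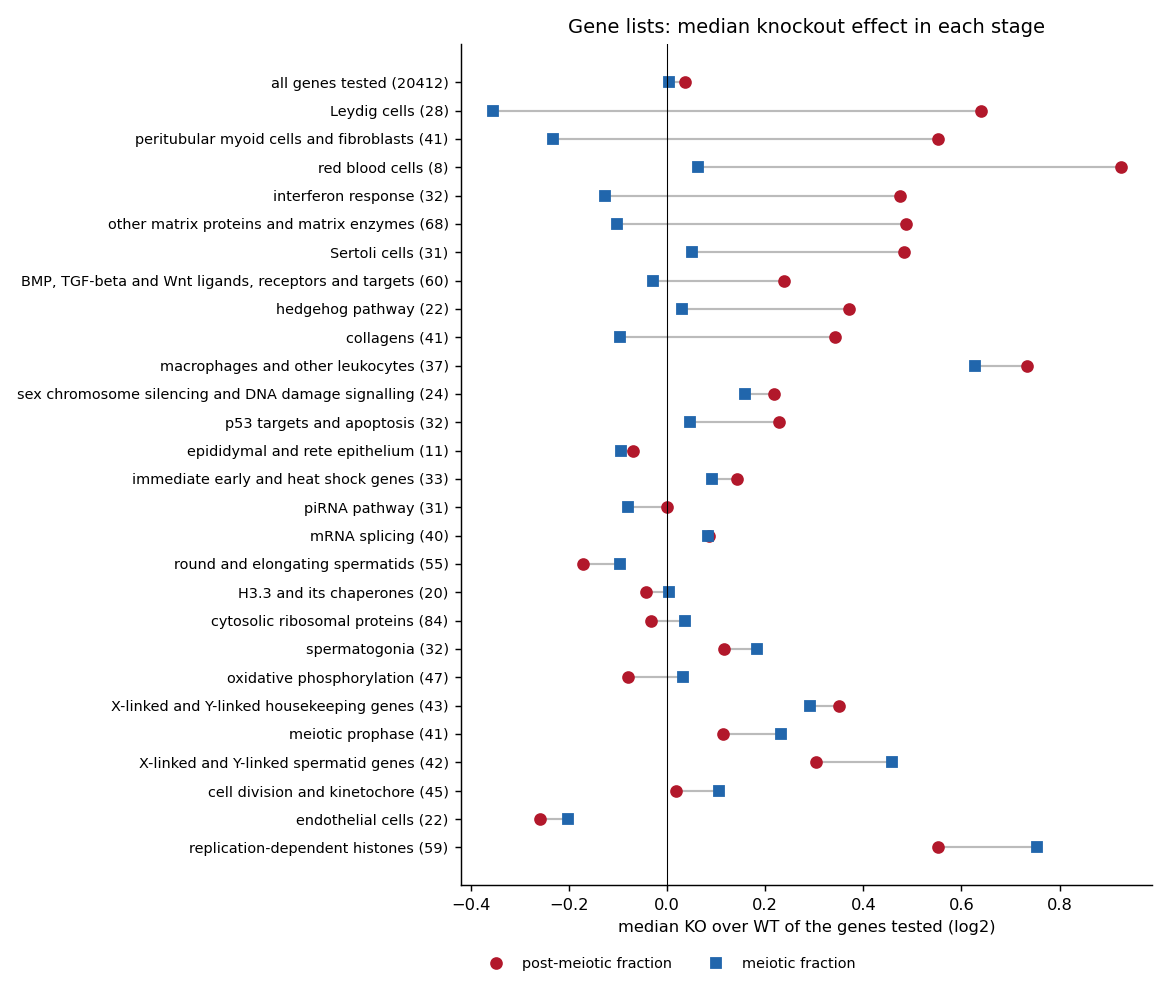
Median log2 KO over WT of the genes of each list in the post-meiotic (red circles) and meiotic (blue squares) fraction, with the number of genes tested in brackets. The circle lies far right of the square for Leydig (0.64 and −0.36) and peritubular genes (0.55 and −0.23), the pair nearly coincides for splicing genes, and for replication-dependent histones the circle (0.55) lies left of the square (0.76).

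Signaling genes of the same tissues were among the larger differences. Ptch1, the hedgehog receptor and itself a target of the pathway, had 9.94 and 8.02 CPM in KO post-meiotic, 5.96 and 4.12 CPM in WT post-meiotic, 2.20 and 1.89 CPM in KO meiotic and 3.56 and 3.29 CPM in WT meiotic libraries. It rose by 0.83 ± 0.152 after meiosis and fell by 0.76 in meiosis, with a stage difference of 1.59 ± 0.235 (edgeR adjusted p = 0.00147, lost without post-meiotic KO replicate 1, meiotic KO replicate 2 or meiotic WT replicate 1). Gli1, the transcription factor at the end of the pathway, was the only other hedgehog gene past the limit of 22 tested, and the list median was 0.31. Its call and that of Id3 were each lost in 6 of the 8 fits that left out 1 library. Among 60 genes of BMP, TGF-beta and Wnt signaling 3 passed the limit above 0 and 0 below, with a median of 0.33. They were Fzd1, a Wnt receptor, Wnt6, a ligand, and Id3, a target of BMP signaling. Fzd1 had 3.14 and 2.72 CPM in KO post-meiotic, 1.64 and 1.33 CPM in WT post-meiotic, 1.33 and 1.01 CPM in KO meiotic and 2.32 and 2.00 CPM in WT meiotic libraries (stage difference 1.89 ± 0.254, edgeR adjusted p = 0.000351). Wnt6 differed after meiosis alone, with 4.60 and 4.36 CPM in KO and 1.67 and 1.72 CPM in WT post-meiotic libraries, against 4.74 and 3.65 CPM in KO and 4.16 and 3.85 CPM in WT meiotic libraries. Both calls were lost without post-meiotic KO replicate 1.

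The 25 genes that were lower in meiotic KO cells only were of mixed kinds, and 3 of them belonged to the somatic, blood or matrix lists. Those described here were chosen after their values were seen. Pou5f2 (ENSMUSG00000093668, mm9 chr13:78162174-78165557), a POU domain transcription factor of the testis, had 5.04 and 4.93 CPM in KO post-meiotic and 4.99 and 4.32 CPM in WT post-meiotic libraries. In meiosis its levels were 36.4 and 30.5 CPM in KO and 69.7 and 74.8 CPM in WT libraries. KO and WT libraries were apart in meiosis and overlapped after it, where the log2 ratio was 0.10 ± 0.113. The stage difference was 1.21 ± 0.137 (edgeR adjusted p = 0.000106, kept in all 8 fits that left out 1 library).

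Fmnl2 (ENSMUSG00000036053, mm9 chr2:52716894-52993236), a formin that builds actin filaments, had 5.56 and 6.33 CPM in KO post-meiotic and 5.28 and 4.37 CPM in WT post-meiotic libraries, against 5.20 and 5.36 CPM in KO and 12.3 and 11.3 CPM in WT meiotic libraries. The 3 groups other than WT meiosis lay close together. Its stage difference was 1.45 ± 0.155 (edgeR adjusted p = 4.95e-05, kept in all 8 fits). Mll2, a histone H3 lysine methyltransferase, and Polr2a, the largest subunit of RNA polymerase II, also passed the limit in meiosis only. Unlike in Fmnl2, their KO meiotic libraries lay above all post-meiotic libraries. Mll2 had 10.3 and 10.5 CPM in KO post-meiotic, 8.79 and 8.40 CPM in WT post-meiotic, 20.2 and 20.5 CPM in KO meiotic and 70.1 and 51.3 CPM in WT meiotic libraries (stage difference 1.85 ± 0.190, edgeR adjusted p = 0.00110). Polr2a had 15.5 and 19.95 CPM in KO post-meiotic, 19.3 and 18.6 CPM in WT post-meiotic, 22.3 and 24.7 CPM in KO meiotic and 90.2 and 71.6 CPM in WT meiotic libraries (1.68 ± 0.215, edgeR adjusted p = 0.00716). In both genes the 2 WT meiotic libraries stood apart from the other 6 and from each other. The Mll2 call was lost without post-meiotic KO replicate 1, either post-meiotic WT or either meiotic KO replicate, and that of Polr2a without either post-meiotic WT or either meiotic KO replicate. Below the log2 limit, Fbn2, which encodes the microfibril protein fibrillin-2, also fell in meiosis. It had 16.7 and 16.7 CPM in KO and 18.7 and 16.7 CPM in WT post-meiotic libraries, against 66.4 and 69.5 CPM in KO and 146 and 132 CPM in WT meiotic libraries (stage difference 0.95 ± 0.093, edgeR adjusted p = 2.14e-05, kept in all 8 fits).

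The bases just before the start sites of Pou5f2 and Fmnl2, which were lower in meiotic KO cells and kept their call in every fit, are shown so that the promoters can be read beside the levels. They are 250 bases each, from RefSeq on GRCm38.p6, a later build than that of the files, on the plus strand at chr13:78024652-78024901 for Pou5f2 and chr2:52857618-52857867 for Fmnl2. Capitals mark the letters AACNGT, the core recognized by MYB factors, which in spermatocytes drive piRNA clusters. Both strands were searched for these exact letters only, so shorter or other forms of the site were not counted, and no other motif was searched.
Pou5f2: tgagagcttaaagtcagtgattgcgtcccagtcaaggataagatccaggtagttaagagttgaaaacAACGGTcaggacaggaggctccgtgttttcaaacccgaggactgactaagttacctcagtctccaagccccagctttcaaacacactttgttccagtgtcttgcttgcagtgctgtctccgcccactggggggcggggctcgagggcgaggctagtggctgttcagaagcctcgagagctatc
Fmnl2: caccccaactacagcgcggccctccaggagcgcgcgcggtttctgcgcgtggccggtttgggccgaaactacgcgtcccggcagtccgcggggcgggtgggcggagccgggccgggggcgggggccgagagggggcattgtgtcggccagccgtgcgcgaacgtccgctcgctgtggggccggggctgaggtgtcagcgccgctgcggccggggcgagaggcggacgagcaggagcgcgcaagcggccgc
The letters occurred once before Pou5f2 and not before Fmnl2. They occurred in 22.3% of all 32851 promoters of this length and, counted per gene over any of its promoters, in 24.87% of 27025 genes. Counted per gene, they occurred in 3 of the 16 genes lower in meiotic KO only that had a promoter in the table. Of the 42 such genes higher in post-meiotic KO only, 10 had them. A match is a description of the letters and not of binding.

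Genes with a stage difference below 0 were fewer, and 9 of the 188 belonged to the germ cell lists, against 128 of all genes tested. Of the 188, 123 were lower in post-meiotic KO cells only, 49 were higher in meiotic KO cells only, and 4 were both. None of the 188 belonged to the somatic, blood or matrix lists, which hold 268 of all genes tested. All lists were chosen with earlier results of these data known, so these list counts are a description and no added test. The 1 gene past the log2 limit, Gm4204, a predicted gene, rests on few reads: 26 and 33 reads in KO post-meiotic, 36 and 26 reads in WT post-meiotic, 18 and 31 reads in KO meiotic and 0 and 1 reads in WT meiotic libraries. Its meiotic KO over WT ratio was 37.6, with an exact 95% interval for counting error of 6.43 to 1513, and its call was lost without post-meiotic KO replicate 1 or meiotic WT replicate 1.

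Of 55 spermatid genes 36 had a value below 0 and 19 above. At an adjusted p under 0.01, 5 were below 0 and none above. Catsper1 (mm9 chr19:5335741-5344153) and Catsper3, pore subunits of the sperm calcium channel, both stood at −0.48. Catsper1 had 45.9 and 49.4 CPM in KO post-meiotic, 71.5 and 74.4 CPM in WT post-meiotic, 32.5 and 33.8 CPM in KO meiotic and 35.9 and 36.7 CPM in WT meiotic libraries (stage difference −0.48 ± 0.081, edgeR adjusted p = 0.00160, lost without post-meiotic KO replicate 1 or meiotic WT replicate 1). KO and WT libraries of Catsper1 did not overlap at either stage, but the meiotic value of −0.13 missed the limit (edgeR adjusted p = 0.102). The gap was wider after meiosis, where the WT level was also higher. The median of the spermatid list, −0.03, became 0.0043 with scaling by library totals, so only its members past the limit have a direction.

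Of 45 cell division genes 30 had a value below 0 and 15 above, with a median of −0.15. At an adjusted p under 0.01, 7 were below 0 and none above. Among them were Cdc25a, Plk1 and Ccnb1, the phosphatase, kinase and cyclin of entry into division, and Cenpe, a kinetochore motor. With 1 library left out, the call of Cdc25a was lost in 1 of 8 fits, that of Ccnb1 in 4 and that of Cenpe in 7. Plk1, the polo kinase, had 87.2 and 89.7 CPM in KO post-meiotic and 91.4 and 90.3 CPM in WT post-meiotic libraries, against 67.6 and 62.2 CPM in KO meiotic and 49.5 and 49.7 CPM in WT meiotic libraries. The groups were separate in meiosis and within 5 CPM after it. Its stage difference was −0.42 ± 0.075 (edgeR adjusted p = 0.00241, lost without either post-meiotic KO replicate or meiotic WT replicate 1). Of 41 prophase genes 29 had a value below 0 and 12 above. At an adjusted p under 0.01, 4 were below 0, namely Msh4, Adad1, Rec8 and Smc1b, and 1 above, Hist1h1t. With 1 library left out, the call of Msh4 was lost in 1 of 8 fits, that of Adad1 in 4, that of Smc1b in 6 and that of Rec8 in 7.

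Histone genes showed the knockout effect at both stages, but unequally. Of 59 replication-dependent histone genes, 28 were higher in post-meiotic KO and 40 in meiotic KO cells at an adjusted p under 0.01. The median was 0.55 after meiosis and 0.76 in it, and 45 of 59 genes had a stage difference below 0. The summed level was 861 and 906 CPM in KO post-meiotic, 631 and 615 CPM in WT post-meiotic, 3357 and 3360 CPM in KO meiotic and 1871 and 1982 CPM in WT meiotic libraries. Hist1h2aa (mm9 chr13:24026331-24026720), a testis H2A gene, had 74.7 and 80.1 CPM in KO post-meiotic, 49.7 and 49.7 CPM in WT post-meiotic, 370 and 411 CPM in KO meiotic and 150 and 168 CPM in WT meiotic libraries. It was higher in every KO than in every WT library of the same stage, by 0.64 ± 0.063 after meiosis and 1.30 ± 0.060 in meiosis, a stage difference of −0.66 ± 0.086 (edgeR adjusted p = 0.000351, kept in all 8 fits). Hist1h2bp, Hist4h4 and Hist1h2bj were also below 0, while Hist2h2be and Hist3h2a were above it, and reads of these near copies may be split between genes. These calls were less firm: with 1 library left out, that of Hist1h2bp was lost in 2 of 8 fits, that of Hist4h4 in 4, that of Hist2h2be in 6, that of Hist1h2bj in 7 and that of Hist3h2a in all 8. Total RNA libraries count such transcripts with no tail.

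X-linked genes were higher in KO at both stages by a similar median. Of 966 X-linked genes, 227 were higher and 5 lower in post-meiotic KO cells, and 238 were higher and 1 lower in meiotic KO cells. The median effect was 0.31 after meiosis and 0.32 in meiosis, and the median stage difference was −0.057, against 0.0055 for autosomes. A stage difference past an adjusted p of 0.01 was found for 10 X-linked genes above and 7 below 0, which is 1.76% of them, against 2.65% of autosomal genes. Of the 13 Y-linked genes none passed. Above the log2 limit there were 8 of the 966 X-linked genes, against 94 of 19418 autosomal genes. The 8 included Rps4x, a ribosomal protein gene, Gpc4, a glypican, and Aff2, an AF4/FMR2 family gene. With 1 library left out, the call of Gpc4 was lost in 3 and that of Aff2 in 5 of the 8 fits. Rps4x had 11.5 and 8.85 CPM in KO post-meiotic, 5.18 and 4.87 CPM in WT post-meiotic, 5.61 and 4.27 CPM in KO meiotic and 5.77 and 5.23 CPM in WT meiotic libraries (stage difference 1.19 ± 0.200, edgeR adjusted p = 0.00287, lost without post-meiotic KO replicate 1, either post-meiotic WT replicate or meiotic WT replicate 1). Its level therefore differed after meiosis only.

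Among genes that the study names for its RT-qPCR, no stage difference was detectable for Zfp811, Abcg8, Ptpro, Fmnl1, Hand2 and Fmn1. Some intervals were wide. H3f3b, which the study also measured by RT-qPCR, passed the adjusted p limit as described above. Zfp811, a zinc finger gene, was higher in KO by 3.32 ± 0.232 after meiosis and 3.38 ± 0.248 in meiosis, with a stage difference of −0.07 ± 0.391. Abcg8, a sterol transporter, was lower by a log2 ratio of −3.35 ± 0.236 after meiosis and −3.87 ± 0.215 in meiosis (0.52 ± 0.377). Ptpro, a receptor phosphatase, had −2.82 ± 0.138 after meiosis and −3.08 ± 0.149 in meiosis (0.26 ± 0.215), and Fmnl1, a formin, −2.84 ± 0.194 and −2.81 ± 0.203 after and in meiosis (−0.03 ± 0.304). Hand2, a transcription factor gene, had 98 and 110 reads in KO post-meiotic, 6 and 1 reads in WT post-meiotic, 68 and 117 reads in KO meiotic and 1 and 1 reads in WT meiotic libraries. Its meiotic ratio of 70.9 has an exact 95% interval for counting error of 19.4 to 589.7, and its stage difference had an edgeR adjusted p of 0.533. Fmn1, another formin, had −0.65 ± 0.208 and −0.61 ± 0.210, both short of the limit. Hspbap1, chosen after its values were seen, was the contrast: 4.94 and 4.71 CPM in KO post-meiotic, 23.2 and 20.6 CPM in WT post-meiotic, 5.82 and 6.22 CPM in KO meiotic and 14.5 and 14.2 CPM in WT meiotic libraries. It was lower in KO at both stages, and more so after meiosis, by −0.93 ± 0.127 (edgeR adjusted p = 0.000351, kept in all 8 fits).

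A larger share of piRNA clusters than of genes had a stage difference past the limit, at 16.2% above 0 with no log2 limit against 1.68% of genes. In the fit of clusters together with genes, and at the study's log2 limit of 0.5, 60 of 402 clusters (14.9%) had a stage difference above 0 and none (0%) below. An unadjusted edgeR p under 0.05 was reached by 116 clusters in either direction, and DESeq2 called 56, all above 0. Of the 60, 29 were lower in meiotic KO cells only, 22 were also higher in post-meiotic KO cells, 8 were higher in post-meiotic KO cells only and 1 was lower at both stages. Over all clusters, 10.4% were higher and 1.99% lower in post-meiotic KO cells at that rule, and 1.24% higher and 19.7% lower in meiotic KO cells. The count of 60 was 25 without post-meiotic KO replicate 1 and 38 without post-meiotic WT replicate 2. Fitted without the genes and scaled by the total of cluster reads, which also changed the set tested, 9 of 496 clusters were above and 21 below 0, and the median was −0.38 against 0.16. Which of these changes moved the count was not tested.

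After meiosis the reads of all clusters were 0.540% and 0.535% of gene reads in KO libraries and 0.458% and 0.438% in WT libraries. In meiosis they were 3.22% and 3.72% in KO libraries and 4.52% and 4.10% in WT libraries. The 60 called clusters summed to 2533 and 2515 CPM in KO post-meiotic, 2054 and 1973 CPM in WT post-meiotic, 21430 and 24950 CPM in KO meiotic and 32730 and 30310 CPM in WT meiotic libraries. KO was above WT after meiosis and below it in meiosis, with no overlap at either stage. The 60 were called for this difference in the same libraries, so their sums and medians (0.30 after meiosis and −0.47 in meiosis) describe them and are no added test. The 342 clusters not called had medians of 0.089 after meiosis and 0.0062 in meiosis, with 167 of the 342 below 0 in meiosis, and all 402 had medians of 0.12 and −0.073. When clusters were split into 4 bins by mean level, 56 of 101 were called in the highest bin (55.5%), with a median stage difference of 0.56. In the next bin 4 of 100 were called, and in the lower ones none, where the median standard error was 0.41 and 0.68 against 0.10 in the highest bin, so a difference of this size was not detectable there.

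Of the 60 called clusters, the one with the largest stage difference, mm9 chr3:20378018-20386923 (8906 bases), had 13.1 and 13.8 CPM in KO post-meiotic and 7.61 and 7.40 CPM in WT post-meiotic libraries, but 27.8 and 31.7 CPM in KO meiotic and 50.6 and 43.3 CPM in WT meiotic libraries. The value was 1.49 ± 0.121 (edgeR adjusted p = 1.52e-06). Its neighbor at chr3:20358922-20368880, less than 10 kb away, gave 25.7 and 27.6 CPM in KO post-meiotic, 16.3 and 16.3 CPM in WT post-meiotic, 57.9 and 63.6 CPM in KO meiotic and 104.2 and 90.7 CPM in WT meiotic libraries (1.39 ± 0.100, edgeR adjusted p = 8.23e-07). Both moved in opposite directions at the 2 stages, and both kept their call without any 1 library. The cluster at chr14:25158224-25190557 passed the limit in meiosis only, with 20.3 and 23.8 CPM in KO and 20.7 and 19.8 CPM in WT post-meiotic libraries, against 129.6 and 136.5 CPM in KO and 282.7 and 263.3 CPM in WT meiotic libraries (1.16 ± 0.093, edgeR adjusted p = 1.52e-06).

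The clusters with the most reads did not all behave alike. The one on chromosome 12 (chr12:99617211-99694189) had 197.1 and 199.2 CPM in KO post-meiotic, 154.6 and 148.2 CPM in WT post-meiotic, 1873 and 2206 CPM in KO meiotic and 3037 and 2796 CPM in WT meiotic libraries, a stage difference of 0.90 ± 0.093 (edgeR adjusted p = 0.000109). Those at chr6:127728022-127792044 and chr7:77023892-77084909 had stage differences of 0.75 ± 0.086 and 0.91 ± 0.121, and the call of the one on chromosome 7 was lost without post-meiotic KO replicate 1 or meiotic WT replicate 1. By contrast the cluster with the most reads of all, chr17:27419945-27507898, had 236.8 and 257.8 CPM in KO post-meiotic, 234.1 and 212.9 CPM in WT post-meiotic, 2210 and 2898 CPM in KO meiotic and 2967 and 2596 CPM in WT meiotic libraries. KO and WT overlapped in meiosis, and its stage difference of 0.27 ± 0.217 missed the limit (edgeR adjusted p = 0.538). The value was −0.26 when clusters were fitted alone. Genes of the piRNA pathway, which process these transcripts, had 0 of 31 members past the limit and a median of −0.02.

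**Figure D4:**
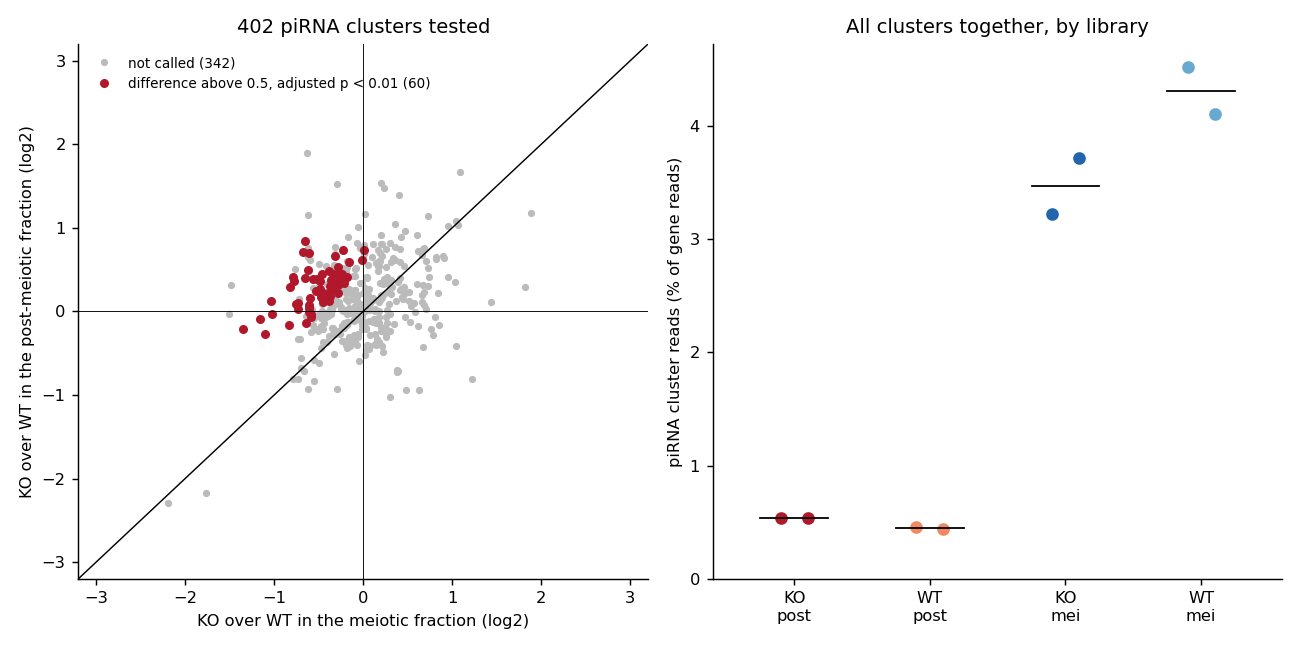
Left, log2 KO over WT of 402 piRNA clusters in the meiotic (x axis) and post-meiotic (y axis) fraction, with the 60 called clusters in red, nearly all of them left of 0 on the x axis (59 of 60). Right, reads in all clusters as a percent of gene reads in each library (points) with the mean of 2 (bar), where KO lies above WT after meiosis (0.540 and 0.535 against 0.458 and 0.438) and below it in meiosis (3.22 and 3.72 against 4.52 and 4.10).

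Repeat families differed less often. Scaled by the total of repeat reads, 11 of 973 families (1.13%) had a stage difference above 0.5 and 1 (0.103%) one below −0.5. Without the log2 limit 32 were above and 5 below 0 (3.29% and 0.514%). The counts depended on the scaling, with 4 above and 1 below by TMM factors of the repeat counts and 35 above and 0 below by the library sizes of the genes, and the median over all families of 0.093 became 0.0042 and 0.21. The count of 12 was 5 without post-meiotic KO replicate 1 and 6 without meiotic KO replicate 1 or meiotic WT replicate 1. All 11 lay below WT in both meiotic KO libraries, as did 57.6% of all families, and 7 of the 11 were lower in meiotic KO and not past the limit after meiosis. Over all families at an adjusted p under 0.01, 1.03% were higher and 6.27% lower in post-meiotic KO cells, and 1.34% were higher and 12.8% lower in meiotic KO cells.

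Internal parts of endogenous retroviruses led the list. MuRRS-int had 85.2 and 81.7 RPM (reads scaled to the total of repeat reads) in KO post-meiotic and 70.7 and 76.4 RPM in WT post-meiotic libraries, against 139.4 and 142.9 RPM in KO meiotic and 234.7 and 210.1 RPM in WT meiotic libraries, a stage difference of 0.84 ± 0.102 (edgeR adjusted p = 3.03e-13). MER68-int had 25.5 and 25.1 RPM in KO post-meiotic, 19.4 and 21.8 RPM in WT post-meiotic, 125.9 and 136.9 RPM in KO meiotic and 196.1 and 188.0 RPM in WT meiotic libraries (0.84 ± 0.132, edgeR adjusted p = 2.98e-08). In both families KO lay above WT after meiosis and below it in meiosis without overlap, and the gap was wider in meiosis. The post-meiotic values missed the limit (edgeR adjusted p = 0.119 for MuRRS-int and 0.0621 for MER68-int). Both post-meiotic KO libraries lay above both WT libraries in 20.45% of all families tested. IAPEY3-int, of the intracisternal A particle group, was apart at both stages and in opposite directions, with 539 and 528 RPM in KO and 457 and 461 RPM in WT post-meiotic libraries, against 624 and 603 RPM in KO and 868 and 762 RPM in WT meiotic libraries (0.63 ± 0.080, edgeR adjusted p = 2.9e-12). These 3 calls were kept without any 1 library. LTR86A1 and MLT1I-int had 0.71 ± 0.187 and 0.64 ± 0.141, and with 1 library left out their calls were lost in 6 and 2 of the 8 fits, at edgeR adjusted p up to 0.157 and 0.146. IAPLTR3-int, chosen after its values were seen, differed after meiosis, with 950 and 879 RPM in KO and 668 and 685 RPM in WT libraries. Of 107 families named as internal parts, 15 were above and 0 below 0 at an adjusted p under 0.01, with a median of 0.14 against 0.093 over all families.

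RLTR10B and RLTR10B2, the long terminal repeats that the study followed, were higher in KO at both stages. RLTR10B had 155.5 and 146.0 RPM in KO post-meiotic, 105.0 and 107.5 RPM in WT post-meiotic, 192.8 and 193.4 RPM in KO meiotic and 108.5 and 104.5 RPM in WT meiotic libraries. The increase was 0.51 ± 0.071 after meiosis and 0.86 ± 0.068 in meiosis, and the stage difference of −0.35 ± 0.099 passed an adjusted p of 0.01 by a narrow margin (edgeR adjusted p = 0.00953) and not in any fit that left out 1 library. RLTR10B2 had 181.6 and 171.5 RPM in KO post-meiotic, 115.9 and 120.6 RPM in WT post-meiotic, 159.4 and 163.0 RPM in KO meiotic and 109.7 and 104.8 RPM in WT meiotic libraries, an increase of 0.58 and 0.59 at the 2 stages (stage difference −0.01 ± 0.098, edgeR adjusted p = 0.961). MER67A was the 1 family below −0.5, with 29.4 and 28.4 RPM in KO post-meiotic, 37.8 and 41.0 RPM in WT post-meiotic, 25.6 and 22.8 RPM in KO meiotic and 22.6 and 21.8 RPM in WT meiotic libraries (−0.56 ± 0.153, edgeR adjusted p = 0.00809, kept only without post-meiotic WT replicate 1 or meiotic KO replicate 2).

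**Figure D5:**
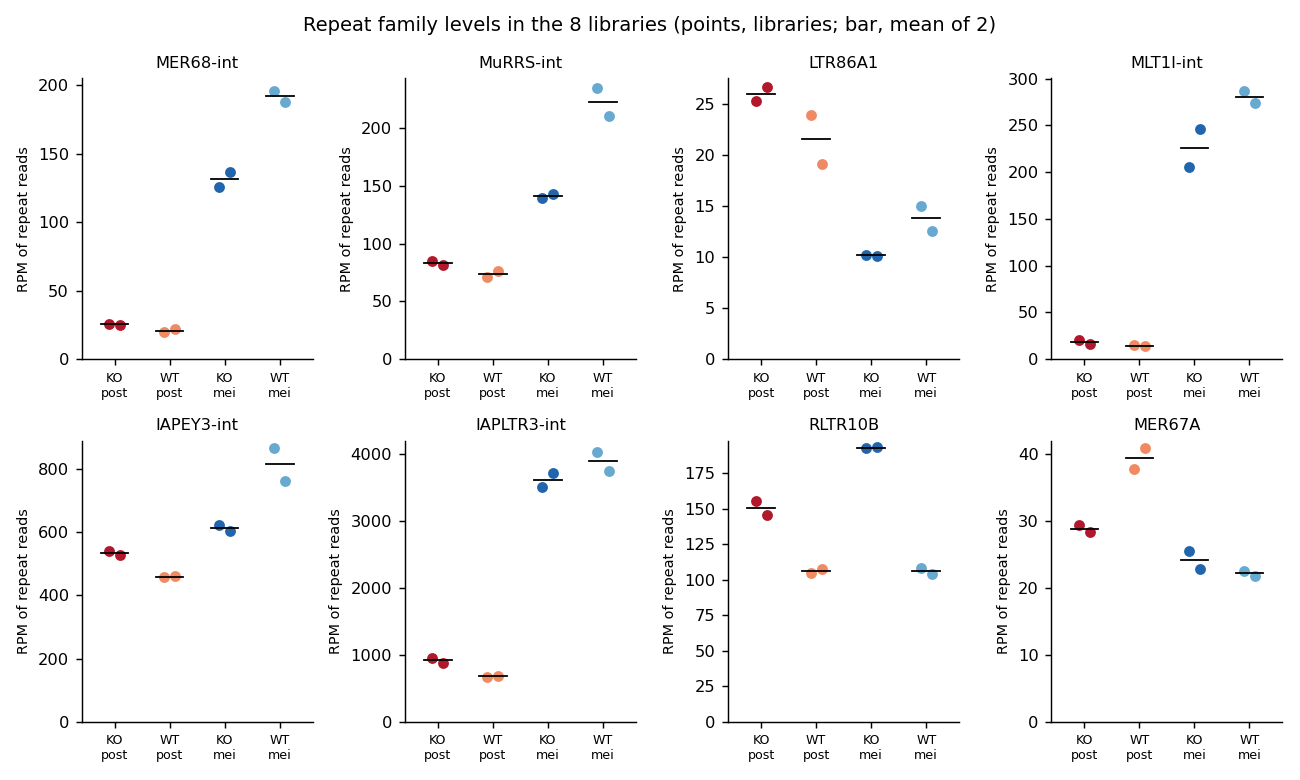
Level in RPM (scaled to total repeat reads) of 8 repeat families in each library (points) with the mean of 2 (bar), for KO and WT post-meiotic and KO and WT meiotic cells from left to right. MER68-int, MuRRS-int and MLT1I-int are lower in KO in meiosis, RLTR10B is higher in KO at both stages (150.8 against 106.3 RPM after meiosis and 193.1 against 106.5 RPM in meiosis), and MER67A is lower in KO after meiosis.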

How the data were processed

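RNA-seq was done on total RNA (stranded, 50 base single-end reads). Per the labels and the methods, the authors made the deposited counts with bcl2fastq 2.17.1.14, TopHat2 2.0.14 with Bowtie2 2.1.0 on mm9 and HTSeq 0.6.1 with Ensembl genes, keeping reads that aligned once, and dropped reads near genes (3 kb upstream to 10 kb downstream) from piRNA cluster counts. Reads lost in this way lower the counts of repeated sequence. Repeat counts were taken per family. Columns of the authors' fold changes and p-values were not used.

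Counts of all 8 libraries were fitted in R 4.3.3 with edgeR 4.0.16 (robust quasi-likelihood test, TMM, filterByExpr, Benjamini-Hochberg adjustment) as 4 groups of 2. Clusters were fitted with the genes, and repeats were scaled by total repeat reads with a minimum of 5 RPM. Calls needed an adjusted p under 0.01 and a log2 limit of 1 (genes) or 0.5 (clusters and repeats). With 4 residual degrees of freedom, small differences of low genes are not detectable. On simulated data 193 of 200 changed genes were recovered and 5 of the others were called. The changes set there were all larger than the log2 limit, and genes with few reads were not among the changed ones. Every simulated gene had the same spread between libraries (biological coefficient of variation 0.05). These rates hold for that setting and do not give the accuracy for the real libraries. Alternatives were DESeq2 1.42.0, other scalings and filters, a replicate block and leaving out each library.

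The members and lists were chosen with earlier results of these data known. The named genes were H3f3b, H3f3a, genes the study names, and the 15 largest differences in each direction with at least 50 reads on average. Up to 4 genes per list and direction and 3 per direction on X and Y were also named. For clusters and repeats these were the 5 largest in each direction. The 3 clusters with most reads, the one with most on chromosome 7, RLTR10B and RLTR10B2 were added. Not all named genes are described: SNORA4, which had the largest stage difference (3.04), Slc38a1, Sybu, Trib2, Col13a1, C1ra and Prrg3, for example, are not. Clones, predicted genes, pseudogenes and receptor families of smell were passed over except for 2 per direction. Exceptions are marked in the text.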

Additional observations from a re-analysis of the deposited data

Results flagged for a closer look

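The knockout effect differed between the stages, by a test of the difference itself, for 103 genes, 60 piRNA clusters and 12 repeat families. Among the named features, those below were also past the limit in both stages with opposite signs, higher in post-meiotic KO and lower in meiotic KO cells. For genes the stage difference was 2.96 for Mgp, 2.56 for Ogn, 2.09 for Kcnk1 (a potassium channel), 1.89 for Fzd1, 1.86 for Itih5, 1.59 for Ptch1 and 1.51 for Des. The call of Kcnk1 was lost in 5 of the 8 fits that left out 1 library. For clusters it was 1.49 at chr3:20378018-20386923, 1.39 at chr3:20358922-20368880, 1.31 at chr13:51244331-51250380, 1.21 at chr7:48537473-48548397, 0.91 at chr7:77023892-77084909, 0.90 at chr12:99617211-99694189 and 0.75 at chr6:127728022-127792044 (mm9). For repeats it was 0.63 for IAPEY3-int. The 2 libraries per group were too few to look for single libraries that stand apart.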

How the results depend on the processing

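The stage difference count of genes was 103, with 14 to 146 when 1 library was left out, 531 with no fold minimum, 265 at an adjusted p under 0.05 and 227 with no filter. That of clusters was 60, with 25 to 65 when 1 library was left out and 30 when clusters were fitted alone. That of repeats was 12, with 5 to 14 when 1 library was left out, 37 with no fold minimum, 5 with TMM factors or DESeq2 and 35 with the library sizes of the genes. The log difference between replicates 1 and 2 was correlated across genes between groups, at −0.062 to 0.109. Only groups of the same genotype could share a mouse, and these gave the highest values, 0.0975 for KO and 0.109 for WT. Pairing by number is therefore not settled, and the main fit used none. A replicate block gave 180 genes and a replicate block within genotype 252 genes. In post-meiotic cells the KO effect counted 622 genes (4905 with no fold minimum, 411 by DESeq2, 394 to 619 with 1 library left out), 21 clusters (50, 13 and 9 to 21 under the same settings, 11 fitted alone, 34 with library totals) and 7 repeats (71, 3 and 6 to 10). In meiotic cells it counted 445 genes (3578 with no fold minimum), 42 clusters (84) and 17 repeats (138, with 10 by TMM factors, 7 by DESeq2 and 10 to 20 with 1 library left out). Values near 0 changed sign. Library totals gave 0.0090 for Fmnl1 and 0.0038 for Fmn1, clusters fitted alone −0.26 for chr17:27419945-27507898, and the library sizes of the genes 0.11 for RLTR10B2. With 1 library left out the stage difference ran from −0.36 to 0.19 for Fmn1, −0.31 to 0.20 for Fmnl1, −1.87 to 0.44 for Hand2, −0.068 to 0.48 for Ptpro, −0.051 to 0.032 for RLTR10B2 and −0.26 to 0.093 for Zfp811. The causes were not tested. Over 144 named features, 1818 values under alternatives stayed on their side of the limit, 301 lost it, 120 gained it and 19 changed sign.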

Other observations

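Genes of the interferon response had 2 of 32 members with a stage difference above 0 at an adjusted p under 0.01 and none below, with a median of 0.54. They were Ddx58, a sensor of viral RNA (0.92 ± 0.154), and B2m, the light chain of MHC class I (0.80 ± 0.153), both by edgeR. With 1 library left out, the call of Ddx58 was lost in 3 and that of B2m in 6 of the 8 fits. The summed level was 113 and 105 CPM in KO post-meiotic, 109 and 107 CPM in WT post-meiotic, 91.1 and 84.8 CPM in KO meiotic and 93.1 and 90.8 CPM in WT meiotic libraries.

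Genes of oxidative phosphorylation had 0 of 47 members past that limit, while 44 of the 47 values were below 0, with a median of −0.10. Cytosolic ribosomal protein genes had a median of −0.06 with 68 of 84 values below 0, and Rps4x alone passed the limit, above 0. Over all genes 10091 of 20412 values were below 0. These small medians moved with the scaling: −0.13 with RLE and −0.06 with library totals for oxidative phosphorylation, and −0.09 and −0.02 for ribosomal protein genes. Genes of spermatogonia had 0 of 32 past it and a median of −0.08.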
